A study of Rattus norvegicus with 145 samples.

Results

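Genes of bile acid synthesis, conjugation, transport and their control were followed in the liver of rats gavaged with acetamide. They are the 10 genes Cyp7a1, Cyp8b1, Cyp27a1, Cyp7b1, Slc27a5, Baat, Slc10a1, Abcb11, Nr1h4 and Nr0b2, picked by symbol out of the 17337 genes of the count tables, and all 10 passed the filter on low counts in each of the 5 data sets. RNA-Seq read counts came from the left liver lobe of rats in 29 groups of 5. Acetamide is a small amide and a rodent liver carcinogen at high doses. Experiment A used male Hsd:WI rats of 9 to 10 weeks dosed for 7 days at 30, 100, 300 and 1000 mkd (mg per kg body weight per day) or with vehicle (0 mkd), and experiment B used male and female Crl:WI rats of 8 to 10 weeks given 0, 300, 500, 750, 1000 or 1500 mkd for 7 or 28 days. All rats, controls included, received daily gavage in water. Livers were taken on day 8 or day 29, after an overnight fast per the study's methods. The control males of day 29 carry the experiment label of the other study, while their title and strain are those of experiment B, where they were used. Levels below are CPM, reads scaled to a common library size and TMM normalized, changes are log2 fold changes from vehicle controls of the same data set with their standard error (SE), and a gene was called when it changed at least 1.5-fold with an adjusted p of at most 0.05 in edgeR, adjusted over all genes tested.

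Bile acids are made from cholesterol in hepatocytes. The classic pathway starts with 7-alpha-hydroxylation by Cyp7a1, the rate-limiting enzyme, and Cyp8b1 then sets the share of cholic acid, whereas the alternative pathway starts with side-chain oxidation by Cyp27a1 and 7-alpha-hydroxylation by Cyp7b1. The products are activated by the ligase Slc27a5 (bile acyl-CoA synthetase), joined to taurine or glycine by Baat, exported into bile by Abcb11 (the bile salt export pump) and taken back up from portal blood by Slc10a1 (the sodium taurocholate cotransporter). Bile acids activate the nuclear receptor Nr1h4 (FXR), which induces Nr0b2 (SHP) and Abcb11 and represses Cyp7a1, and Cyp7a1 also follows the circadian clock.

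Each library held between 15449716 and 39986531 reads assigned to genes (median 28262376), and 0 pairs of libraries held identical columns. The defining hepatocyte markers were abundant in every data set, and the 8 listed summed to between 132784 and 287996 CPM per rat in the control and highest-dose groups. Sums over marker lists, unlike the other levels, are scaled to library size alone, without TMM. The TMM factor stood apart at the highest dose in 2 data sets. In A males it was 1.06 to 1.91 at 1000 mkd and 0.856 to 0.976 in controls, and in females of day 29 it was 1.03 to 1.45 at 1500 mkd and 0.735 to 1.02 in controls, so that every treated rat lay above every control. With DESeq2 size factors in place of TMM, 5 members were called in each of these 2 highest-dose comparisons, as with TMM. Both scalings adjust for the make-up of the libraries, so how far the calls rest on that adjustment was not tested. CPM are divided by the TMM factor, which lowers these treated rats against their controls. Statements below on the overlap of groups hold on this scale. They need not hold at library size alone, which was not tested. In males of day 29 only rat 3 of the 1500 mkd group stood apart, at 1.49 (others 0.970 to 1.08). Results are given with and without the most extreme rats where they bear on them. The members were covered by 140 to 21556 reads per rat for Cyp7a1, 16227 to 77595 for Baat and 19 to 241 for Cyp7b1, the least abundant.

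The same 5 members fell at the highest dose in A males day 8 and in B females day 29. These were the conjugation enzymes Slc27a5 and Baat, the side-chain hydroxylase Cyp27a1 and the transporters Slc10a1 and Abcb11, with changes of -1.30 to -0.61 in A males and of -0.99 to -0.69 in B females. At 1000 mkd in A males day 8, 5 of 10 members were called lower and 0 higher, where 7.45% of the 11323 genes tested were called lower. At 1500 mkd in B females day 29 it was likewise 5 of 10 lower and 0 higher, where 3.54% of 11451 genes were called lower. The median change of the members was -0.72 and -0.67, against 0.00 over all genes tested in each of these comparisons. In bulk tissue, fewer cells of a type and less RNA per cell cannot be told apart. The heat map of changes shows the calls by dose.

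**Figure D1:**
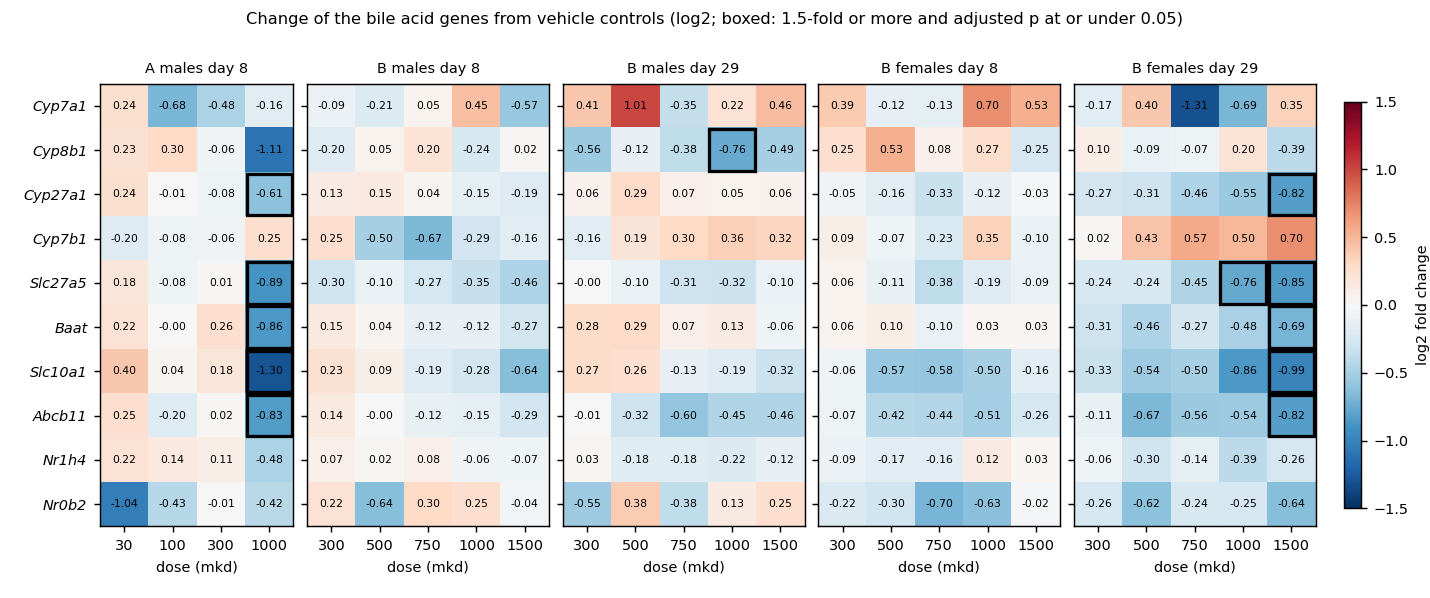
Log2 fold changes of the 10 genes (rows) from the vehicle controls at each dose (columns, mkd) in the 5 data sets, 5 rats per group, with called changes boxed. Boxes stand in the highest-dose columns of A males day 8 and B females day 29 (5 genes each), and otherwise for Slc27a5 at 1000 mkd in B females day 29 and Cyp8b1 at 1000 mkd in B males day 29.

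Slc27a5, which activates bile acids for conjugation, measured 1037, 863, 1351, 1119 and 1085 CPM in the 5 control rats of A males and 694, 389, 792, 516 and 562 CPM in those given 1000 mkd. On the TMM scale the groups did not overlap. It fell by 0.89 on the log2 scale (SE 0.18, adjusted p = 0.0011). The control females of day 29 held 1457, 1284, 1301, 1176 and 1473 CPM and the rats at 1500 mkd 589, 742, 578, 876 and 937 CPM, again without overlap. There it fell by 0.85 (SE 0.15, adjusted p = 0.00056). It was also the only member called at a lower dose in these females, with a fall of 0.76 at 1000 mkd (SE 0.15, adjusted p = 0.019), where 0.358% of genes were called lower and all 5 rats (633 to 895 CPM) lay below every control. This call was lost in 2 of 10 fits with 1 rat fewer (adjusted p up to 0.065), and Slc10a1 was called at this dose in 3 of 17 alternatives.

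Baat, which joins activated bile acids to taurine or glycine, measured 1143, 1780, 1166, 1216 and 1763 CPM in control A males and 949, 385, 1013, 799 and 734 CPM at 1000 mkd. Every treated rat lay below every control, and the fall was 0.86 (SE 0.26, adjusted p = 0.015). Among the females of day 29 the controls held 1489, 1219, 905, 1387 and 1971 CPM and the treated rats 828, 487, 626, 1201 and 1174 CPM, so that the groups overlapped, with 3 of 5 treated rats below every control. The fall was 0.69 (SE 0.19, adjusted p = 0.011).

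Cyp27a1, the mitochondrial sterol 27-hydroxylase, measured 348, 479, 445, 413 and 456 CPM in control A males and 330, 202, 370, 246 and 252 CPM at 1000 mkd. One treated rat reached into the control range, and the fall of 0.61 (SE 0.17, adjusted p = 0.0086) was close to the 1.5-fold limit. Controls among the females of day 29 held 694, 447, 582, 633 and 824 CPM and the treated rats 387, 292, 328, 381 and 412 CPM. These did not overlap, and the fall was 0.82 (SE 0.21, adjusted p = 0.0071).

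Of the transporters, Slc10a1, the main sodium-dependent uptake carrier, showed the largest change of the 10 members in both comparisons. It measured 672, 867, 791, 760 and 1039 CPM in control A males and 428, 118, 599, 342 and 194 CPM at 1000 mkd, all below the controls, and fell by 1.30 (SE 0.29, adjusted p = 0.0024). In B females day 29 the controls held 783, 609, 585, 872 and 1490 CPM and the treated rats 516, 206, 307, 620 and 530 CPM, with 4 of 5 below every control. There it fell by 0.99 (SE 0.26, adjusted p = 0.0086).

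Abcb11, the canalicular export pump and a target of FXR, measured 528, 548, 671, 778 and 916 CPM in control A males and 353, 223, 583, 439 and 335 CPM at 1000 mkd. Of the treated rats, 4 of 5 lay below every control, and the fall was 0.83 (SE 0.20, adjusted p = 0.0035). The females of day 29 had 819, 680, 662, 1173 and 1310 CPM in controls and 507, 273, 402, 937 and 503 CPM in treated rats. With 1 treated rat inside the control range, the fall was 0.82 (SE 0.25, adjusted p = 0.02).

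**Figure D2:**
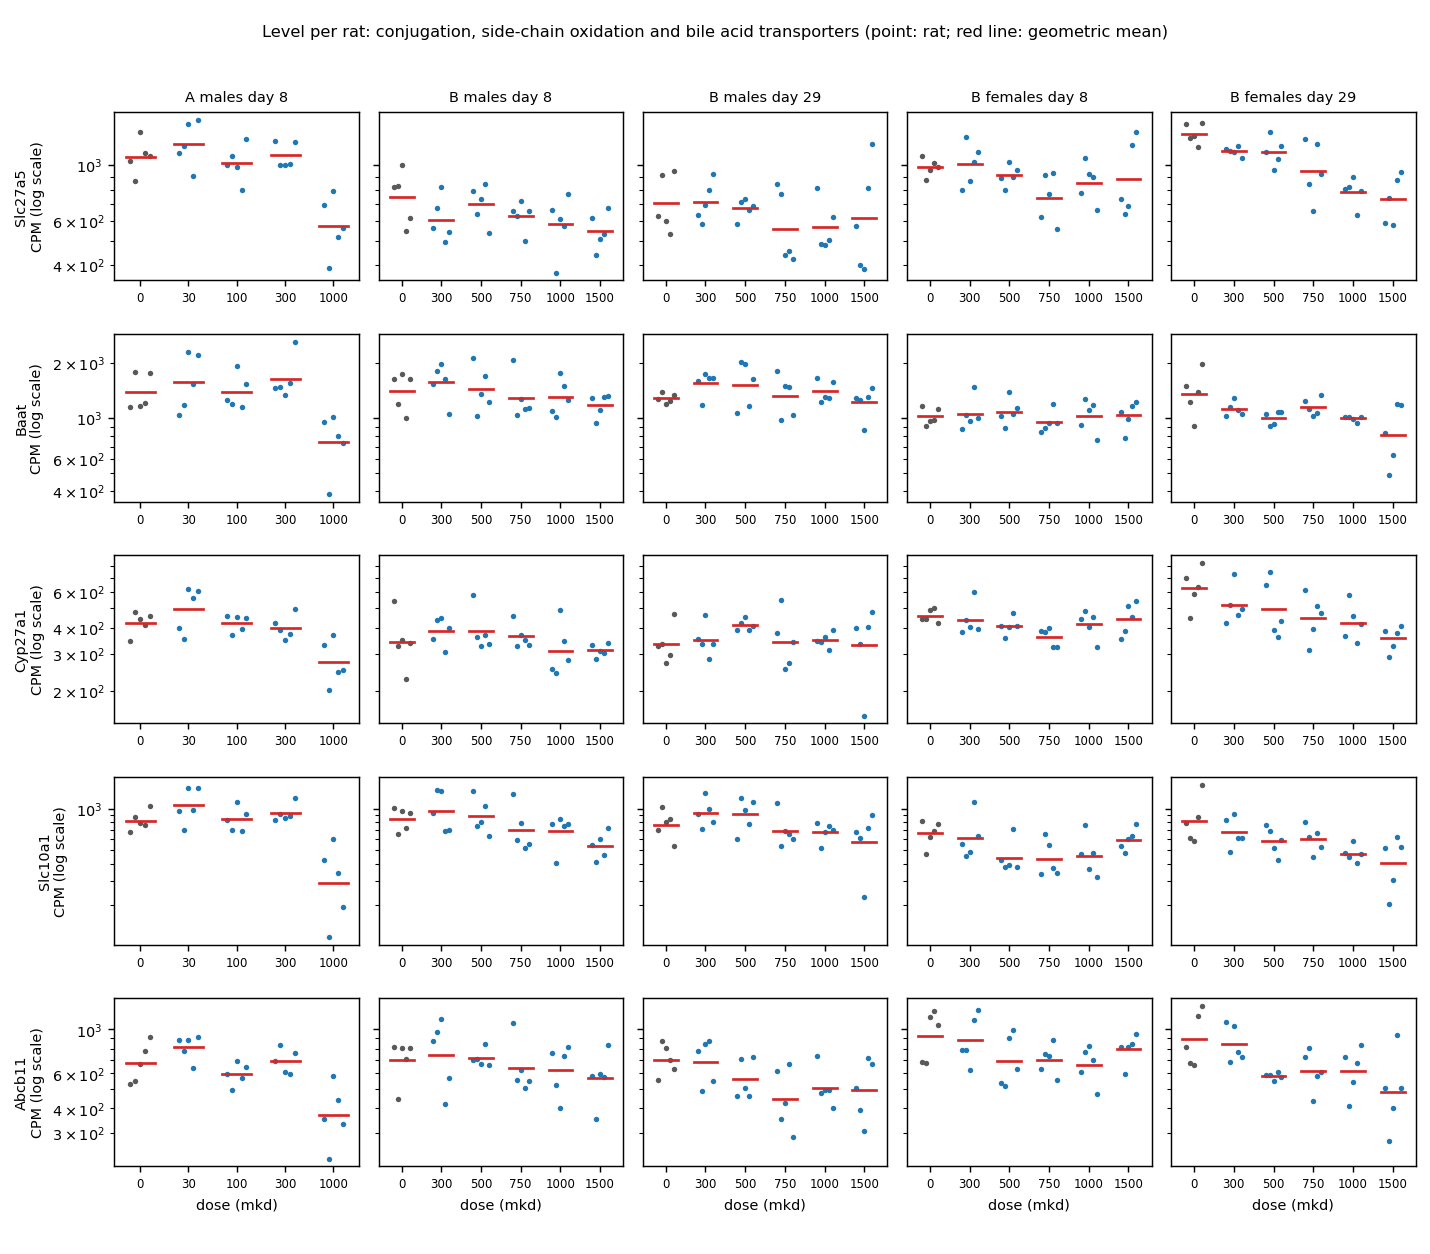
CPM per rat (points, log axis) by dose (mkd) for the 5 members called at the highest dose of A males day 8 and B females day 29, in all 5 data sets, with grey points for vehicle controls and red lines for geometric means. In A males the groups up to 300 mkd sit at the level of the controls and the 1000 mkd group lies lower, while in B females day 29 the means decline over several doses.

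Single rats carried part of these calls. Without rat 2 of the 1000 mkd group of A males, the rat with the largest TMM factor and the lowest level of all 5 genes, 4 members were still called lower, and Cyp27a1 changed by -0.51 (adjusted p = 0.027), under the 1.5-fold limit, as it was in 4 of 10 fits with 1 rat fewer. In B females day 29, 3 were called without treated rat 2 and 2 without control rat 5. Slc27a5 and Cyp27a1 were called in both of these cases. Control rat 5 had the highest level of all 5 genes among the controls and the lowest TMM factor of all libraries (0.735). Over the 10 fits of these females with 1 rat fewer, Abcb11 was called in 6, Baat in 8, Slc10a1 in 9, and Slc27a5 and Cyp27a1 in all 10.

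The lower doses were then examined in both data sets. In A males day 8, 0 members and 0.0% of all genes were called by edgeR at 30, 100 or 300 mkd, where 324, 232 and 218 genes had an unadjusted p under 0.05 and DESeq2 called 0, 0 and 1 genes. A fit of log2 level on dose called 7 of 10 members lower (10.4% of all genes), adding Cyp8b1 (-1.32 over the dose range, SE 0.40, adjusted p = 0.0094) and Nr1h4 (-0.61, SE 0.18, adjusted p = 0.0065) to the same 5, but 0 of 10 were called when the 1000 mkd group was left out. The call of Nr1h4 was also lost with ranks of the dose (adjusted p = 0.15), under the 1.5-fold limit when at least 10 counts were required in every rat (-0.58), and in 3 of 25 fits with 1 rat fewer, and that of Cyp8b1 with ranks of the dose (adjusted p = 0.14). The dose fit in B females day 29 called the same 5 members lower (4.43% of all genes), from Slc27a5 with a fitted change of -0.90 over the dose range (SE 0.14, adjusted p = 1.7e-05) to Baat with -0.59 (SE 0.16, adjusted p = 0.0082). Here 3 members were still called without the 1500 mkd group. The shares of all genes called in the fits without the highest dose are not given here, so these member counts stand without a background. Mean Slc27a5 in these females was 1338, 1137, 1137, 979, 788 and 744 CPM from 0 to 1500 mkd.

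The upstream sequences of 4 of the 5 members that fell together are shown because these genes moved in the same direction in both data sets. Of the 10 members, 6 matched an entry in the promoter table of RefSeq (build GRCr8), and Abcb11, Cyp7a1, Cyp7b1 and Nr1h4 did not. The 250 bases before the annotated start are printed 5′ to 3′ on the strand of the gene, with capitals for letters that match any of 5 motifs searched on both strands. These were the nuclear receptor half-site AGGTCA, found in 14.1% of 33469 promoters of this length, CAAAGTCCA of HNF4 (0.338%), CAAGGNCA of LRH-1 (5.58%), which can overlap the half-site, GTTAAT, a half-site of HNF1 (6.45%), and TTATGTAA of C/EBP and PAR bZIP factors (0.828%).
Slc27a5 (chr1:82699336-82699585, minus strand): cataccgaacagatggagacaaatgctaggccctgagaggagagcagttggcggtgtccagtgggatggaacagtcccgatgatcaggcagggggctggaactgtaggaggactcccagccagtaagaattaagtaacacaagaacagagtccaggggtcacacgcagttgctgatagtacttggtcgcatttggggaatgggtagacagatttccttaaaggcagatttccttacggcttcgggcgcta
Baat (chr5:68656138-68656387, minus strand): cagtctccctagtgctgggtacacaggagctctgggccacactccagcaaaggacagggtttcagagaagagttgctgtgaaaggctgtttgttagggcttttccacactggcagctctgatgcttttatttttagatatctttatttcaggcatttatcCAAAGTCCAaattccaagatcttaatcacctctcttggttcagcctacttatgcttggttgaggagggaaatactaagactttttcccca
Cyp27a1 (chr9:83713282-83713531, plus strand): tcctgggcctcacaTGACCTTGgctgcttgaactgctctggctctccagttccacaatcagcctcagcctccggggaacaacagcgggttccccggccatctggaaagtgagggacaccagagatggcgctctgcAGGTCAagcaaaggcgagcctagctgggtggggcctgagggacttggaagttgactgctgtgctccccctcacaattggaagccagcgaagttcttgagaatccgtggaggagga
Slc10a1 (chr6:106357945-106358194, minus strand): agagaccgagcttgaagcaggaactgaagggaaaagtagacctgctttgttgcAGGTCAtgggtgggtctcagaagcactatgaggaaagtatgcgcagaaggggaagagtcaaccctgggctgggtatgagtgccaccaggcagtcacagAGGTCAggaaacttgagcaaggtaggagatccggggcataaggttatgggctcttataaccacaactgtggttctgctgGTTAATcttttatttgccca

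The Baat promoter holds the HNF4 letters 90 bases before the start. That of Slc10a1 holds the half-site at 197 and 99 bases and the HNF1 letters at 20 bases before the start. Cyp27a1 holds the half-site at 115 bases and, on the opposite strand, at 236 bases, where the LRH-1 letters overlap it. The window of Slc27a5 holds none of the 5 motifs. In the other matched promoters, of genes that were not called at these doses, the LRH-1 letters occur once in each, 199 bases before the start of Nr0b2 and 82 bases before that of Cyp8b1. These are matches of letters, and the count data do not measure binding.

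Markers of other cell types moved in the same libraries. The summed levels given here carry no TMM factor, so they are on another scale than the log2 changes beside them. In A males at 1000 mkd, 4 of 8 hepatocyte markers were called lower (median of the 8 changes -0.68), with the secreted proteins Alb (-0.91, SE 0.27, adjusted p = 0.013) and Ttr (-0.98, SE 0.25, adjusted p = 0.0048) among them, and their summed level was 242481 to 287996 CPM in controls and 145690 to 259787 CPM in treated rats. Called higher were 5 of 8 macrophage, 6 of 6 T and NK cell and 3 of 5 endothelial markers, and 0 of 6 cholangiocyte markers were called, where 14.0% of all genes were called higher. The summed macrophage markers rose from 413 to 1093 CPM in controls to 1256 to 2759 CPM. At 1500 mkd in B females day 29, 2 of 8 hepatocyte markers were called lower (Alb, -0.98, and Cps1, -0.74) and 1 higher (Apoa1, 0.92). The median of the 8 changes was -0.49. Their summed levels were 199025 to 282212 CPM in controls and 132784 to 204060 CPM in treated rats. There 4 of 8 macrophage, 2 of 5 T and NK cell, 2 of 5 endothelial and 2 of 6 cholangiocyte markers were called higher (9.55% of all genes). In both data sets 0 of 12 clock genes were called, against 21.4% and 13.1% of all genes called in either direction. Of 7 stellate cell markers, 1 and 2 were called higher. Of 3 neutrophil markers tested, 2 were called lower in A males (7.45% of all genes) and 1 higher in B females day 29 (9.55%). The ileal markers Fgf19, Fabp6 and Alpi had 0 reads in every rat of A males, and the 1 ileal marker tested there was not called (-0.50). In B females day 29 the 1 ileal marker tested was called higher (1.24). The summed ileal markers there were near the floor, at 0.0947 to 0.256 CPM in controls and 0.264 to 0.932 CPM in treated rats. The part of these shifts in the changes of the bile acid genes was not tested.

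In B males day 8, none of the 10 members was called at 1500 mkd (0.177% of 11304 genes were called, and 1.55% by DESeq2, which called 0 members too; 1429 genes had an unadjusted p under 0.05 in edgeR). Slc10a1 came closest, with 1011, 659, 961, 718 and 927 CPM in controls and 543, 414, 605, 464 and 723 CPM in treated rats. Its change of -0.64 (SE 0.25, adjusted p = 0.26) left 4 of 5 treated rats below every control, and its fitted change over the doses was -0.79 (SE 0.23, adjusted p = 0.055). The dose fit called 0 members in this data set in edgeR (2.02% of all genes), 1 in DESeq2 and 1 with the replicate number as a block. Slc27a5 changed by -0.46 (SE 0.18, adjusted p = 0.26) at 1500 mkd.

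In B males day 29, 0 of 10 members were called at 1500 mkd, where 4.91% of 11279 genes were called. Abcb11 and Slc10a1 changed by -0.46 (SE 0.24, adjusted p = 0.22) and -0.32 (SE 0.26, adjusted p = 0.43). Rat 3, the one with the large TMM factor, held the lowest Slc10a1 (231 CPM, others 611 to 899), Cyp27a1 (152 CPM, others 335 to 480) and Nr0b2 (4.10 CPM, others 30.5 to 136) of its group, and without it 0 members were called as well. The study named this rat an outlier for the proliferation marker Ki67 and left it out of its Ki67 dose modeling. At 1000 mkd, 1 member was called, Cyp8b1 (1.81% of genes were called lower at this dose). Its controls held 951, 1216, 1362, 1410 and 1247 CPM and the rats at 1000 mkd 748, 746, 568, 1004 and 587 CPM, a fall of 0.76 (SE 0.23, adjusted p = 0.049). In 7 of 10 fits with 1 rat fewer it missed the threshold. The dose fit called 0 members of this data set, where 14.0% of all genes were called.

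In B females day 8, 0 of 10 members were called at 1500 mkd (0.705% of 11497 genes were called, and 2.94% by DESeq2). The 5 members that fell on day 29 changed by -0.26 to 0.03 at this dose on day 8. At 300, 500, 750 and 1000 mkd the median change of the 10 members was 0.00, -0.14, -0.28 and -0.04, with 0 called. Of all genes, edgeR called 0.0087%, 0.0174%, 0.0174% and 1.37% at these doses. At 750 mkd 9 of 10 members changed by less than 0. The unadjusted p at 750 mkd was under 0.05 in edgeR for 2 members and for 14.0% of all genes. Slc27a5 spread more widely in the treated rats (731, 637, 689, 1208 and 1349 CPM) than in the controls (1087, 871, 960, 1020 and 987 CPM), with 3 treated rats below and 2 above every control. The dose fit called 0 members, against 4.1% of all genes.

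Among the enzymes that hydroxylate the sterol ring, Cyp8b1 changed most in A males. It measured 609, 504, 1060, 861 and 1106 CPM in controls and 905, 57.4, 274, 168 and 515 CPM at 1000 mkd, a change of -1.11 (SE 0.46, adjusted p = 0.068) that missed the threshold with 3 of 5 treated rats below every control. It was called without treated rat 1, the highest of the group (-1.71, adjusted p = 0.0054), and by DESeq2 (-1.12, adjusted p = 0.033). The change at 1500 mkd was 0.02 in B males day 8 and -0.25 to -0.49 in the other data sets of experiment B, none of them called.

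Cyp7a1 varied more between rats of 1 group than between doses. In A males the controls held 177, 154, 112, 29.8 and 42.6 CPM and the rats at 1000 mkd 283, 37.1, 23.5, 52.0 and 65.1 CPM. The change was -0.16 with an SE of 0.81 (adjusted p = 0.90), so that neither a fall nor a rise of 2-fold was outside the error. Over the 29 groups the highest rat exceeded the lowest by 5.74-fold in the median group and by up to 25.9-fold, compared with 1.55-fold in the median group for Cyp27a1 and 1.61-fold for Slc27a5. At 1500 mkd in experiment B its changes were -0.57 (SE 0.67) on day 8 and 0.46 (SE 0.59) on day 29 in males, and 0.53 (SE 0.53) and 0.35 (SE 0.70) in females, with adjusted p of 0.63 to 0.77. Group means ran from 35.0 CPM at 750 mkd in males day 29 to 288 CPM at 500 mkd in females day 29, on scales set separately in each data set.

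Cyp7b1, which hydroxylates oxysterols, was near the lower end of detection at 0.739 to 5.87 CPM per rat. Its changes at the highest dose lay between -0.16 and 0.70, none called, the largest in B females day 29 (1.85 ± 1.02 CPM in controls and 2.98 ± 1.05 CPM at 1500 mkd, SD, n = 5; adjusted p = 0.17). Each rat had 19 to 241 reads on this gene.

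The nuclear receptors were not called at any dose. Nr1h4 (FXR) measured 152, 88.6, 133, 101 and 105 CPM in control A males and 101, 53.5, 89.4, 85.9 and 86.7 CPM at 1000 mkd, a change of -0.48 (SE 0.20, adjusted p = 0.075), and changed by -0.26 to 0.03 at 1500 mkd in experiment B. Nr0b2 (SHP), the FXR target that restrains Cyp7a1, held 36.2, 62.4, 36.3, 32.3 and 19.5 CPM in control A males and 38.9, 19.3, 39.9, 32.9 and 8.95 CPM at 1000 mkd. Its highest rat exceeded its lowest by 4.56-fold in the median group and by up to 33.2-fold, in the 1500 mkd group of males day 29. At the highest dose its changes ran from -0.64 (SE 0.42) in females day 29 to 0.25 (SE 0.70) in males day 29.

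**Figure D3:**
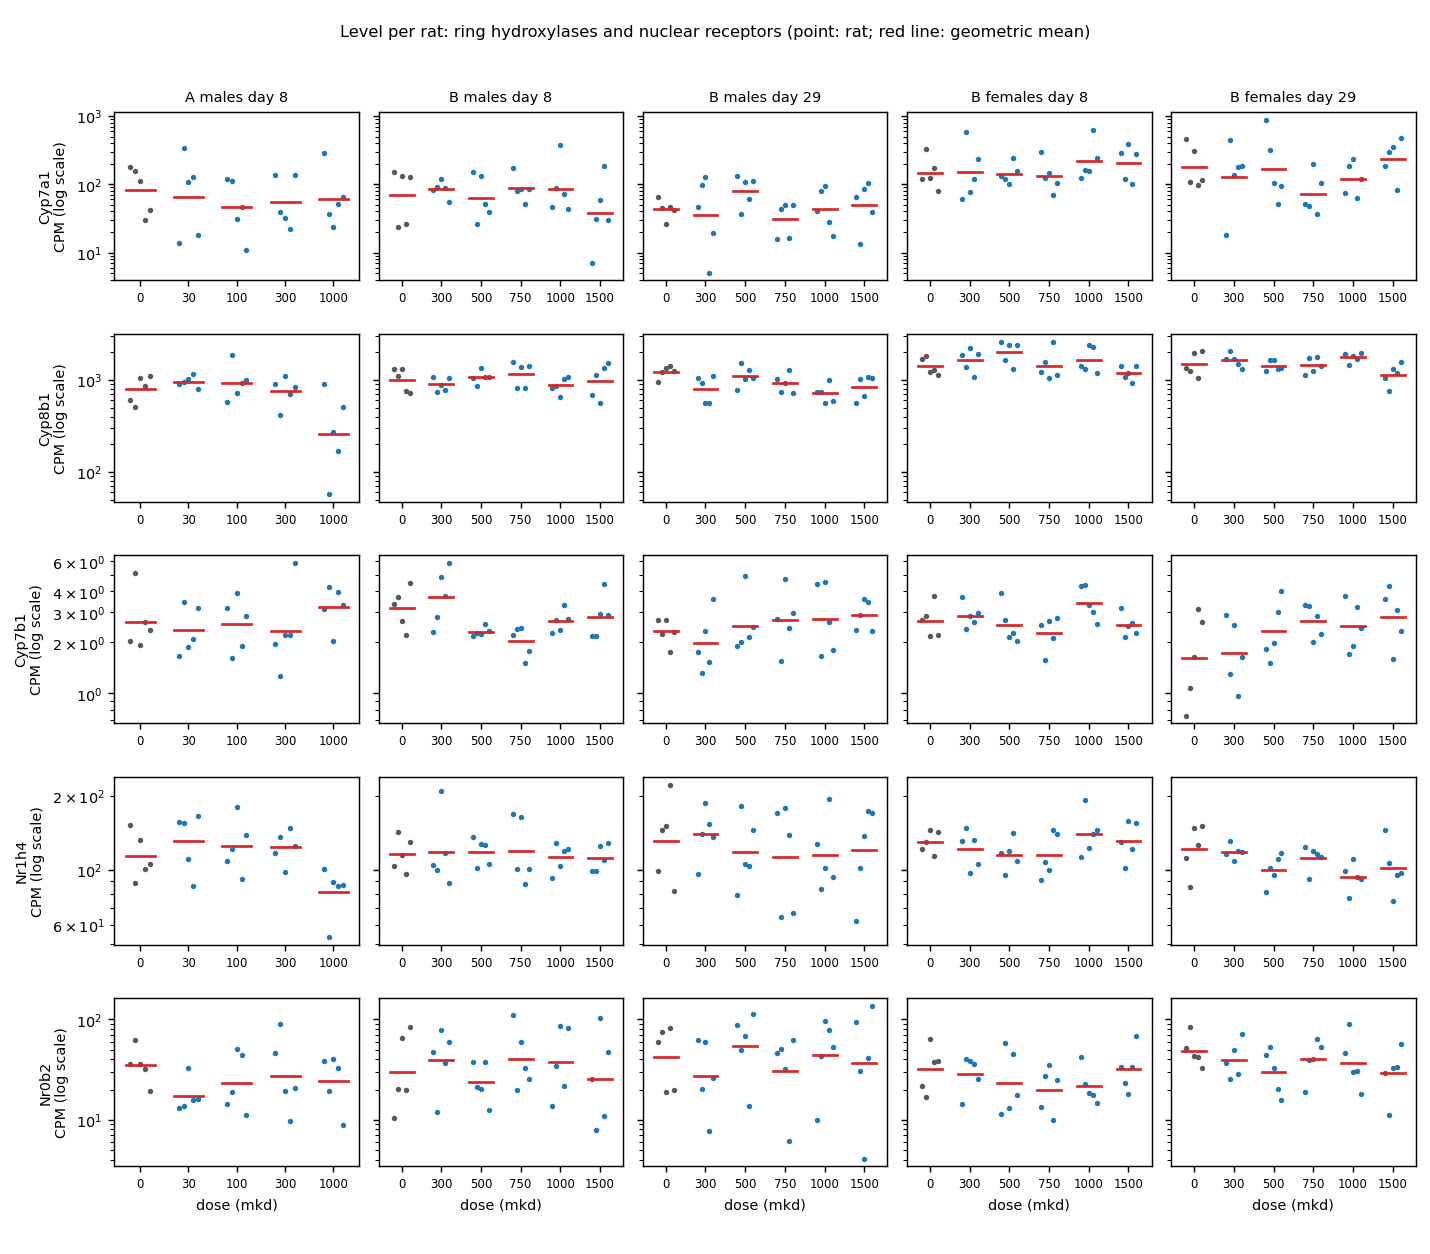
CPM per rat (points, log axis) by dose (mkd) for the ring hydroxylases Cyp7a1, Cyp8b1 and Cyp7b1 and the nuclear receptors Nr1h4 and Nr0b2 in the 5 data sets, with grey points for vehicle controls and red lines for geometric means. Cyp7a1 and Nr0b2 spread widely within groups at every dose, Cyp7a1 by 5.74-fold from lowest to highest rat in the median group, and Nr1h4 by 1.71-fold.

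Whether the response of the members differed between sexes, durations or experiments was tested directly, as a difference of the changes at matched doses. None of the 10 members was called for sex at 1500 mkd on day 8 or day 29, for duration in males or females, or for experiment at 1000 mkd in males day 8. Of all genes, edgeR called 0.0% in each of these 5 tests. Unadjusted p was under 0.05 for 465, 1327, 419, 562 and 2486 genes and for 0, 1, 0, 4 and 2 members, and DESeq2 called 0, 7, 0, 0 and 645 genes, with no member among them. The members that fell in females day 29 had point estimates below those of females day 8, by -0.79 for Cyp27a1 (SE 0.22), -0.76 for Slc27a5 (SE 0.28), -0.84 for Slc10a1 (SE 0.39), -0.73 for Baat (SE 0.32) and -0.57 for Abcb11 (SE 0.39), all with adjusted p = 0.90. Between experiments at 1000 mkd, Slc10a1 differed by -1.01 (SE 0.44, adjusted p = 0.19), from 364.6 ± 206 CPM in A males and 737 ± 181 CPM in B males (SD, n = 5 each). The experiments differ in rat strain, age range and, per the study's methods, supplier together, and these cannot be told apart.

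Vehicle controls were compared between the sexes and between time-points on joint normalizations of the groups compared. On day 29, 3 of 10 members were called between the sexes, all lower in males, where 10.2% of 10839 genes were called. Cyp7a1 measured 62.6, 43.4, 25.2, 45.1 and 40.0 CPM in males and 421, 96.3, 271, 87.2 and 106 CPM in females, without overlap, a difference of -2.18 (male minus female, SE 0.45, adjusted p = 0.0087). Cyp27a1 was at 329 ± 71.0 CPM in males and 571 ± 131 CPM in females (SD, n = 5; difference -0.80, adjusted p = 0.017), and Slc27a5 at 701 ± 182 and 1201 ± 127 CPM (-0.78, adjusted p = 0.013).

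On day 8 the sexes differed in 1 member, Baat, with 1429 ± 317 CPM in males and 901 ± 95.2 CPM in females (difference 0.67, adjusted p = 0.023; 7.77% of 10971 genes called). In 6 of 10 fits with 1 rat fewer it missed the threshold. Between time-points, 0 members were called in males (0.0184% of 10875 genes) or females (0.0% of 10891 genes in edgeR, with 1639 genes at an unadjusted p under 0.05, and 1.58% in DESeq2). The control females of day 29 nevertheless held more Slc27a5 than those of day 8, 1213 ± 130 against 846 ± 65.7 CPM without overlap (difference 0.52, SE 0.13, adjusted p = 0.17), and Cyp27a1 and Baat differed by 0.55 (adjusted p = 0.22) and 0.52 (adjusted p = 0.26) in the same direction.

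Since Cyp7a1 varied so widely between rats of the same group, its deviations from the dose-group mean were set against those of Nr0b2, Cyp8b1 and the clock output gene Dbp. Across 15 such relations, 2 passed a permutation test within dose groups after adjustment, both with Dbp. In A males the deviations of Cyp7a1 and Dbp had Pearson's r = 0.67 and Spearman's rho = 0.72 over 25 rats (permutation p = 0.00096 and 0.00029, adjusted p = 0.0072 and 0.0022), and in B females day 29 r = 0.74 and rho = 0.80 over 30 rats (permutation p = 3e-05 and 2e-05, adjusted p = 0.00045 and 0.0003). The sign was positive in 5 of 5 and 6 of 6 dose groups. Without the 2 rats farthest from the median, r was 0.73 and 0.71. In the males of experiment B r was 0.03 on day 8 and 0.26 on day 29, and in its females of day 8 it was 0.29, none past the threshold. Without the 2 rats farthest from the median these were 0.07, 0.59 and 0.04.

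**Figure D4:**
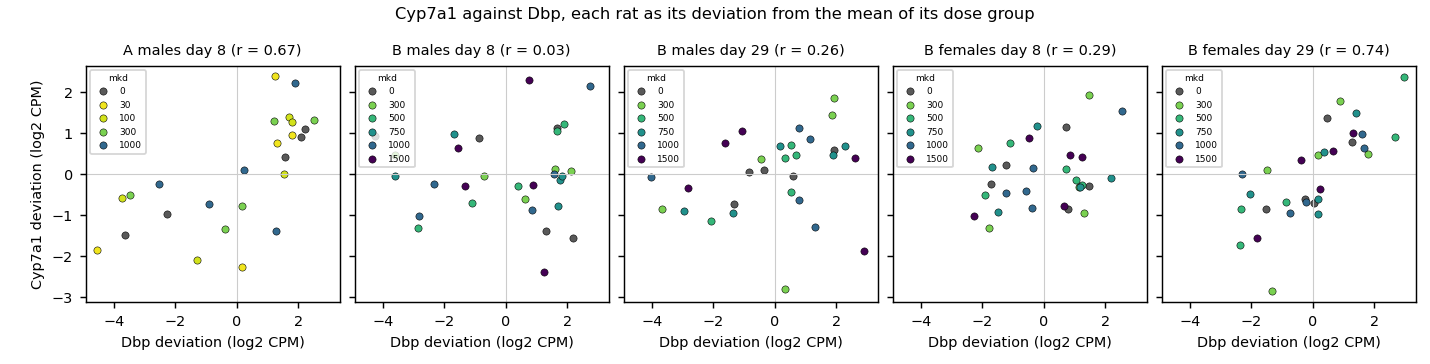
Cyp7a1 against Dbp in log2 CPM, each point 1 rat as the deviation from the mean of its dose group, coloured by dose (mkd), for the 5 data sets. The points follow a rising line in A males day 8 (r = 0.67) and B females day 29 (r = 0.74) and form no line in B males day 8 (r = 0.03).

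No relation of Cyp7a1 with its repressor Nr0b2 passed the threshold. Their r within dose groups lay between 0.01 and 0.32 in the 5 data sets, with adjusted permutation p of 0.52 to 0.94. For Cyp7a1 and Cyp8b1 it lay between -0.29 and 0.26, again with none past the threshold, although r in B males day 29 was -0.59 without the 2 rats farthest from the median. Over all rats and 9857 genes compared, the 3 genes whose deviations were most like those of Cyp7a1 were Hsd17b7, an enzyme of cholesterol synthesis (r = 0.49), Usp2, a clock-driven protease (r = 0.48), and Gys2, the liver glycogen synthase (r = 0.46). Those most like Nr0b2 were Zfp354a (r = 0.58), Ang (r = 0.55) and Herpud1, a gene of the endoplasmic reticulum stress response (r = 0.53). These are descriptions over rats that share tables and normalization, and for Hsd17b7 r ran from -0.04 to 0.78 between data sets.

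Further genes of the pathway were read from lists of synthesis, transport, detoxification and regulator genes, 57 in all, of which 53 are in the tables. In A males at 1000 mkd, 10 of 15 synthesis genes were called lower (7.45% of all genes) and 1 higher (14.0%). The median change of this list was -0.67, against 0.00 over all genes. Among the genes called lower were the acyl-CoA synthetase Slc27a2 (-1.06, SE 0.23, adjusted p = 0.0016), the peroxisomal enzyme Hsd17b4 (-0.94, SE 0.22, adjusted p = 0.0036) and the steroid reductase Akr1c14 (-0.95, SE 0.26, adjusted p = 0.0085), which in B females day 29 was called lower too (-0.74, SE 0.18, adjusted p = 0.0056) with 1 other of 15, the oxysterol hydroxylase Cyp39a1 (-0.69), where 3.54% of all genes were called lower. The gene called higher in A males, the cholesterol 25-hydroxylase Ch25h, was at 0.298 ± 0.152 CPM in controls and 1.28 ± 1.26 CPM in treated rats (SD, n = 5). In B males day 29 only Pex5 was called of this list (-1.001, at 2.02 ± 0.281 CPM in controls), and 1.76% of all genes were called lower.

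Transport genes beyond the members moved in both directions. Slco1a1, an organic anion uptake carrier, was called lower in A males (338 ± 70.5 to 122 ± 48.6 CPM, -1.47, adjusted p = 0.00057), B males day 29 (346 ± 32.9 to 166 ± 44.7 CPM, -1.06, adjusted p = 0.0091) and B females day 29 (263 ± 113 to 135 ± 50.3 CPM, -0.96, adjusted p = 0.019). Treated rats and controls did not overlap in A males or in B males day 29, and 2 of 5 treated rats lay below every control in B females day 29. Abcc3, a basolateral export pump for bile acids and other anions, was called higher in the same 3 data sets, by 1.89 (SE 0.38, adjusted p = 0.0010), 1.47 (SE 0.37, adjusted p = 0.020) and 1.55 (SE 0.37, adjusted p = 0.0046). It measured 3.30, 2.00, 3.74, 3.10 and 3.71 CPM in control A males and 4.90, 31.0, 4.17, 10.6 and 7.92 CPM at 1000 mkd, and 16.4, 14.6, 16.5, 8.81 and 9.48 CPM in control females of day 29 and 40.8, 59.2, 31.4, 48.0 and 12.8 CPM at 1500 mkd. In B females day 8 it changed by 1.69 (SE 0.43, adjusted p = 0.056), with 4 of 5 treated rats above every control.

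Also called lower in A males were the uptake carrier Slco1b2 (-1.23, adjusted p = 0.0078) and the fatty acid binding protein Fabp1 (-1.21, adjusted p = 0.0036), and in B males day 29 the canalicular conjugate pump Abcc2 (-0.93, adjusted p = 0.010) and the flippase Atp8b1 (-0.92, adjusted p = 0.028). Over the transport list, 3 of 11 were called lower and 1 higher in A males, against 7.45% and 14.0% of all genes. In B males day 29 the counts were likewise 3 of 11 lower and 1 higher (1.76% and 3.16% of all genes), and in B females day 29 they were 1 of 12 lower and 1 higher (3.54% and 9.55%).

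Of the detoxification genes, 4 of 10 were called lower and 1 higher in A males, against 7.45% and 14.0% of all genes. In B males day 29, 1 of 10 was called lower (1.76% of all genes), and in B females day 29, 3 of 10 were called lower and 1 higher (3.54% and 9.55%). Ugt1a1, a glucuronosyltransferase, was lower in all 3, by -0.79 (adjusted p = 0.0019), -0.90 (adjusted p = 0.042) and -1.003 (adjusted p = 0.017). The bile acid sulfotransferase Sult2a1 was lower in A males (-1.68, adjusted p = 0.0018) and B females day 29 (-0.88, adjusted p = 0.027). Members of the Sult2a and Cyp3a families have near-identical copies, so that their reads may be split between genes. In A males the glutathione transferase Gsta2 (-1.42, adjusted p = 0.0014) and Cyp3a2 (-1.22, adjusted p = 0.011) were also lower, and in B females day 29 Sult2a6 was lower (-0.92, adjusted p = 0.027) and Cyp3a62 higher (1.30, adjusted p = 0.0039). The gene called higher in A males, named after its values were seen, was the microsomal epoxide hydrolase Ephx1 (0.72, adjusted p = 0.011).

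Of the 14 regulators tested, 2 were called in A males, where 21.4% of all genes were called in either direction, and 1 each in B males day 29 (4.91%) and B females day 29 (13.1%). Nr1i2 (the pregnane X receptor, -0.67, adjusted p = 0.014) and Smarca4 (0.71, adjusted p = 0.031) were called in A males, Rxra, the partner of FXR, in B males day 29 (-1.41, SE 0.29, adjusted p = 0.0088, and no overlap of the groups), and Ppargc1a in B females day 29 (1.10, adjusted p = 0.048). At 1500 mkd on day 8, none of the genes of the 4 lists was called in B males or B females.

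**Figure D5:**
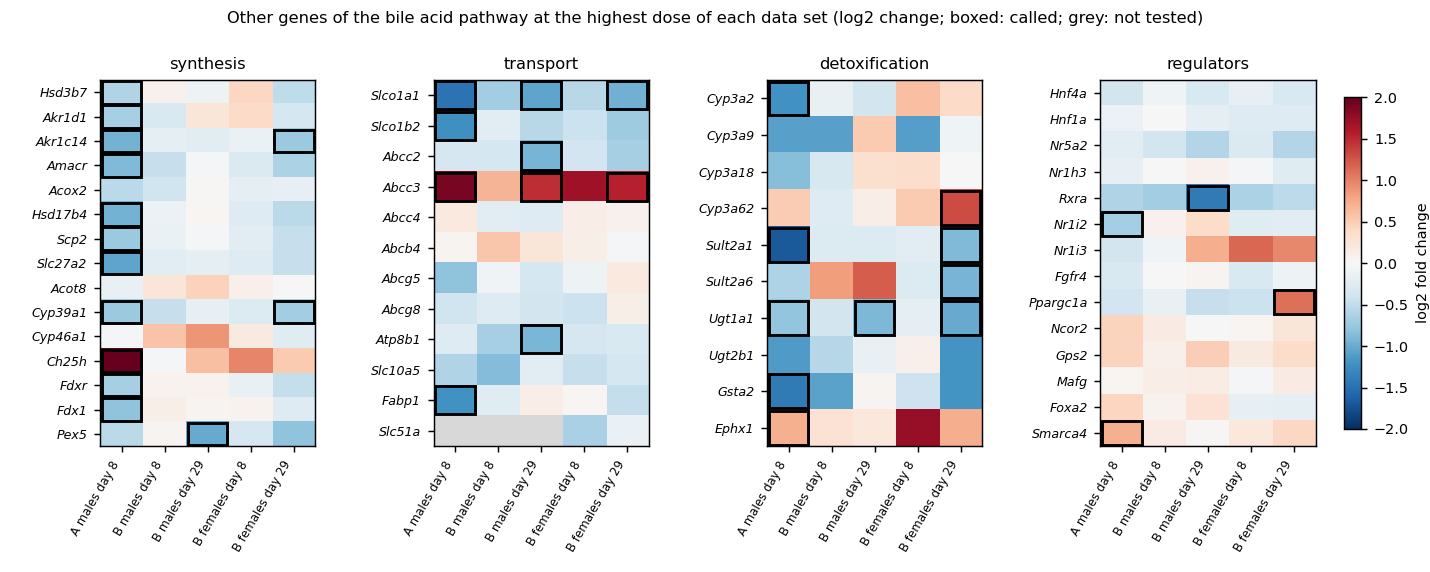
Log2 fold changes of the other listed genes of the pathway at the highest dose of each data set (1000 mkd in A, 1500 mkd in B), 5 treated against 5 control rats, with called changes boxed and untested genes grey. Slco1a1 is boxed as lower and Abcc3 as higher in A males day 8, B males day 29 and B females day 29, and most boxes stand in A males day 8.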

How the data were processed

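Liver RNA of 145 rats was sequenced as stranded mRNA libraries, single-end. Per the submitters' notes and the study's methods, the authors trimmed reads with Trimmomatic, aligned them to rat genome Rn6 with Bowtie2 and counted them per gene with HTSeq, and versions are not given in the sources used here. The 5 deposited tables hold raw counts, 1 per experiment, sex and duration. HTSeq summary lines, present in the tables of experiment B, made up 35.5 to 67.1% of their columns (median 41.2%) and were left out. The 10 members and all gene lists were chosen with earlier results of these data known.

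Counts were filtered by expression, normalized by TMM and fitted over all dose groups of a table with edgeR's quasi-likelihood test (edgeR 4.0.16, R 4.3.3), with Benjamini-Hochberg adjustment over all genes tested. A call needed a change of at least 1.5-fold and an adjusted p of at most 0.05. The dose trend used the dose as a number, scaled to the highest dose. Sex, duration and experiment were tested as differences of the dose change, and controls were compared directly, both on tables joined and normalized together. Relations across rats used log2 CPM (prior count 2) as deviations from dose-group means, with 100000 two-sided permutations within dose groups. DESeq2 1.42.0, other scalings and filters, a replicate block, a clock score, other dose scales and leaving out each rat were alternatives. The scripts were tested on simulated data. Depth limits Cyp7b1 most, with 19 to 241 reads per rat, and counting error is only part of the spread between rats.

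Named genes were all members, the called genes of the other pathway lists (at most the 4 with the largest change per list and data set), and the 3 genes most like Cyp7a1 and Nr0b2. Promoter sequences came from RefSeq (GRCr8), whose coordinates differ from those of Rn6.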

Additional observations from a re-analysis of the deposited data

Results flagged for a closer look

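Within the 290 groups of 5 rats formed by 10 genes and 29 dose groups, 1 rat stood far from the other 4 in 25 (8.62%), high in 22 and low in 3. For independent, normally distributed values chance gives such gaps in about 1 in 20 groups. CPM are skewed and the genes of 1 rat are not independent, so the rate that chance gives in these data was not measured.

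Cyp7a1 was high in 1 rat of A males at 1000 mkd (283 CPM, others 23.5 to 65.1), of B males day 8 at 750 (173 CPM), 1000 (382 CPM) and 1500 mkd (185 CPM), and of B females day 8 at 1000 mkd (634 CPM). Cyp7b1 was high in A males at 0 (5.15 CPM) and 300 mkd (5.87 CPM) and in B males day 29 at 500 mkd (4.93 CPM). Nr0b2 stood out in A males at 30 mkd (32.5 CPM) and Nr1h4 in B males day 8 at 300 mkd (208 CPM).

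Of the transporters, Slc10a1 was high in A males at 300 mkd (1192 CPM), B males day 29 at 750 mkd (1092 CPM) and B females day 8 at 300 (1114 CPM) and 500 mkd (709 CPM), and low in B males day 8 at 1000 mkd (407 CPM). Abcb11 was low in the controls of B males day 8 (447 CPM) and high there at 500 (847 CPM) and 750 mkd (1073 CPM), as well as in B males day 29 at 1000 mkd (736 CPM).

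Baat was high in A males at 300 mkd (2616 CPM), B males day 8 at 750 mkd (2066 CPM) and B females day 8 at 300 mkd (1479.6 CPM), and low in B males day 29 at 300 mkd (1173 CPM). Cyp27a1 was high in B males day 8 at 500 mkd (579.8 CPM) and B females day 8 at 300 mkd (594 CPM). Some rats were flagged for several genes. Rat 1 of B males day 8 at 750 mkd carried Cyp7a1, Abcb11 and Baat, rat 5 of A males at 300 mkd Cyp7b1, Slc10a1 and Baat, and rat 4 of B females day 8 at 300 mkd Cyp27a1, Slc10a1 and Baat. None of these 3 rats belonged to a group whose members were called.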

How the results depend on the processing

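The counts of called members at the highest dose stayed within 1.5 times the main count under other scalings, filters, DESeq2 and a clock score, except that in B females day 29 at 1500 mkd 2 instead of 5 were called when the fit held the control and tested dose alone. For the dose trend, A males gave 3 members with ranks of the dose and 0 without the highest dose (7 in the main fit), B males day 8 gave 1 with DESeq2 (0), B males day 29 gave 1 with no filter and 2 without the highest dose (0), and B females day 29 gave 3 without the highest dose (5). With the replicate number as a block, B males day 8 gave 1 member for the trend, and the count at the highest dose was 5 in A males and 5 in B females day 29, as without it. Control and highest-dose rats of the same number had deviations that correlated above 0.1 in 2 to 4 of 5 pairs per data set (range -0.25 to 0.34). They were not compared with pairs of different numbers, so whether rats of 1 number belong together was not tested. Without the 2 rats farthest from the median, r in B males day 29 was -0.59 for Cyp7a1 and Cyp8b1 and 0.59 for Cyp7a1 and Dbp, both past the threshold, and -0.030 for Cyp7a1 and Nr0b2 in B females day 8. The cause of these shifts was not tested.

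Some small changes, none past the threshold, turned direction. Nr0b2 changed by 0.017 in B males day 8 and 0.15 in B females day 8 with the clock score, and by -0.056 in B males day 29 and 0.018 in B females day 8 with the block, and Cyp27a1 by -0.00707 in B males day 29 with no filter. Without the highest dose, the trend in A males was 0.014 for Slc10a1, 0.016 for Nr1h4 and 0.18 for Baat.

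Leaving out 1 rat at a time gave 4 to 6 members in A males at 1000 mkd and 2 to 5 in B females day 29 at 1500 mkd, 0 to 1 and 0 to 3 for the trend in B males day 8 and day 29, and 0 to 1 between control sexes on day 8. In the same fits uncalled changes crossed 0, with ranges in A males of -1.22 to 0.12 (Cyp7a1), in B males day 8 of -0.16 to 0.18 (Cyp8b1), -0.32 to 0.012 (Cyp27a1), -0.81 to 0.43 (Nr0b2) and -0.13 to 0.012 (Nr1h4), in B males day 29 of -0.12 to 0.19 (Cyp27a1), -0.33 to 0.49 (Nr0b2), -0.30 to 0.064 (Nr1h4) and -0.46 to 0.040 (Slc27a5), and in B females day 8 of -0.090 to 0.060 (Cyp27a1), -0.18 to 0.042 (Cyp7b1), -0.38 to 0.31 (Nr0b2), -0.038 to 0.11 (Nr1h4), -0.014 to 0.12 (Baat) and -0.25 to 0.013 (Slc27a5). For Cyp7a1, r ran from -0.098 to 0.13 with Dbp in B males day 8, in B males day 29 from 0.19 to 0.47 with Nr0b2, -0.59 to -0.19 with Cyp8b1 and 0.19 to 0.44 with Dbp, from -0.099 to 0.10 with Nr0b2 and -0.16 to 0.083 with Cyp8b1 in B females day 8, and from -0.072 to 0.088 with Cyp8b1 in B females day 29.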
